A study of Mus musculus with 4 samples.

Results

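Urethane-induced lung tumors of mice that lacked the transcription factor Nrf2 (gene symbol Nfe2l2, genotype Nrf2-/-) were compared with tumors of mice that carried it (Nrf2+/+). A gene was counted as measured where its probe was well above background, by the scanner software's flag, on at least 1 of the 2 tumor arrays. This held for 17824 of the 32300 genes and transcripts on the array, and 13029 of the 17824 had a gene symbol. All animals were female ICR mice aged 6 months that had been given urethane at 1 g/kg into the peritoneal cavity 16 weeks earlier. Urethane, or ethyl carbamate, is a chemical carcinogen used to induce adenomas of the mouse lung. Tumors of 1.0 to 1.5 mm were cut from the lung surface and freed of adjoining tissue, and RNA from 8 mice of a genotype was pooled for 1 array. Both tumor arrays lay on the same slide. Pools of non-tumor lung from urethane-treated Nrf2+/+ and Nrf2-/- mice, on 1 array each, are given beside the tumor values. Of these the Nrf2-/- array shared the slide of the tumor arrays and the Nrf2+/+ array lay on another, so in non-tumor lung slide and genotype cannot be told apart. The labels do not name the knockout allele and do not say whether tumor and non-tumor tissue came from the same animals. With 1 pool per genotype the difference between tumors carries no p-value, and the spread between the mice of a pool was not measured.

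Nrf2 is a basic leucine zipper transcription factor that is held at a low level by Keap1, an adaptor that hands it to a Cul3 ubiquitin ligase. Oxidants and electrophiles modify Keap1, and Nrf2 then accumulates, pairs with a small Maf protein and binds antioxidant response elements near genes of detoxification, glutathione and thioredoxin chemistry, NADPH supply and heme breakdown. In the lung this pathway is known for limiting damage by inhaled and chemical toxicants, and its constitutive activation by mutation is frequent in human lung cancer.

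Values are given as signal, the background-corrected brightness of a probe in intensity units on its array, and as difference, the log2 level in Nrf2-/- minus that in Nrf2+/+ after each array was set relative to its 75th percentile. Most genes lay close to equality: the median difference was -0.03, 82.8% of the measured genes were within 1.5-fold, and 16414 genes were well above background on both arrays. At least 2-fold higher in the Nrf2-/- tumor pool were 764 genes (4.29% of those measured), and at least 2-fold lower were 655 genes (3.67%), together 7.96%. The 2-fold mark is a description and not a test. Among the genes well above background on both arrays, 460 (2.8%) were past it upward and 307 (1.87%) downward. In these genes the error that the scanner software assigns to a difference had a median of 0.20 on the log2 scale, which covers the reading of the spots and not the animals. The plot of level against level shows the genes named for the size of their difference.

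**Figure D1:**
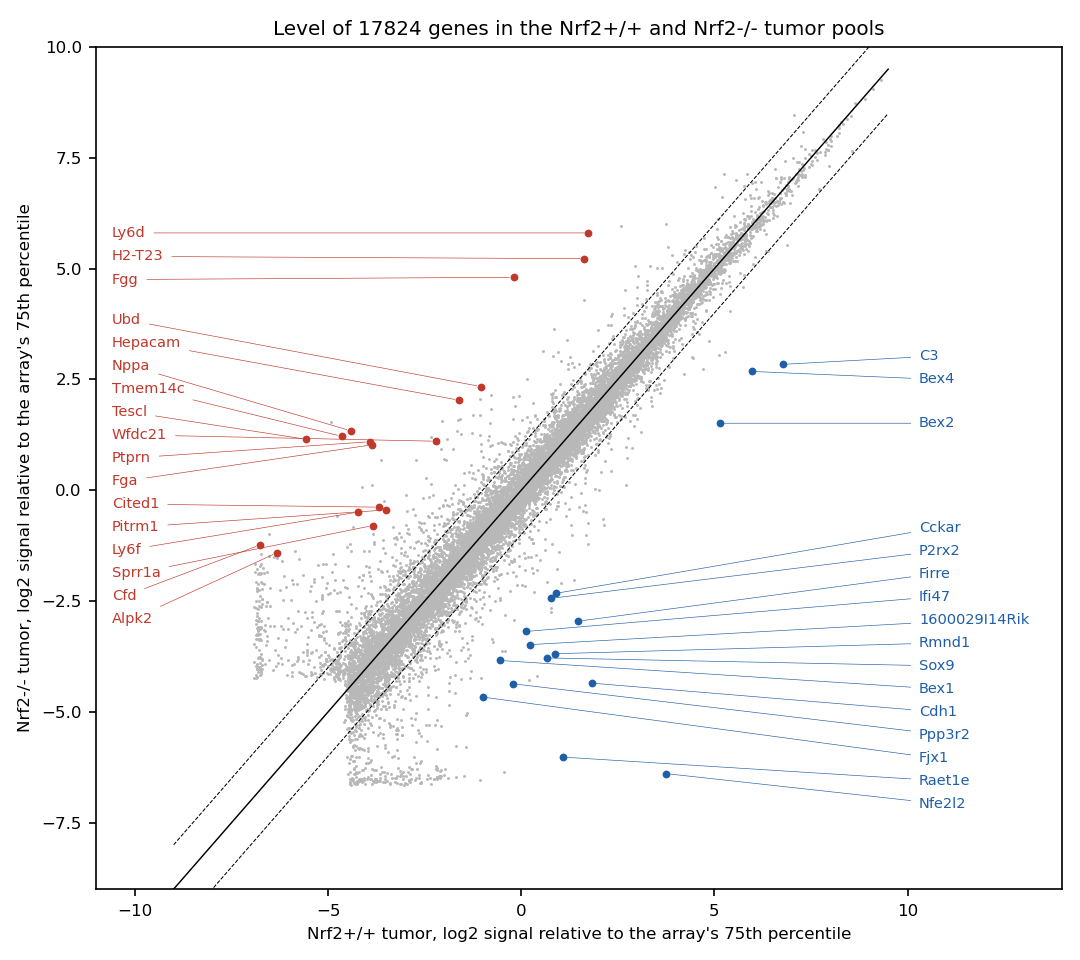
Level of each of the 17824 measured genes in the Nrf2+/+ tumor pool (x axis) and the Nrf2-/- tumor pool (y axis), as log2 signal relative to the 75th percentile of the array. The solid line marks equal levels and the dashed lines a 2-fold difference; named genes are among those with the largest differences or lower bounds, higher in Nrf2-/- in red and lower in blue, with Nfe2l2, not well above background in Nrf2-/-, farthest below the line.

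The targeted gene was examined first. Nfe2l2 had a signal of 7478 in Nrf2+/+ tumor and 6.94 in Nrf2-/- tumor, and of 7913 and 5.13 in Nrf2+/+ and Nrf2-/- non-tumor lung. Neither Nrf2-/- pool was well above background, so the tumor difference is a bound, at least 268-fold lower. Such a bound compares the brighter array with the higher of the gene's own signal and the dimmest signal flagged as well above background on the dimmer array. The second probe of Nfe2l2 read 6157 in Nrf2+/+ and 6.50 in Nrf2-/- tumor, so both probes were dim in the knockout pool. The position of these probes with respect to the deletion is not known from the sources used here.

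The 10 other measured partners of Nrf2 all stayed within 2-fold. Keap1 had signals of 5433 in Nrf2+/+ and 5207 in Nrf2-/- tumor, a difference of -0.13. Cul3, the scaffold of the ligase, differed by -0.34. The small Maf genes Mafk, Mafg and Maff differed by -0.07, 0.03 and 0.21, Bach1, a repressor that competes for the same DNA elements, by 0.06, and Sqstm1 (p62), which sequesters Keap1, by 0.08. The related factors Nfe2l1 and Nfe2l3 were at 0.19 and 0.35. Transcripts of the regulators around Nrf2 thus lay at near-equal levels in both tumor pools, apart from Nfe2l2 itself.

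Of 67 listed Nrf2 target genes, 60 were measured in tumor; 11 were at least 2-fold lower in Nrf2-/- and 0 were higher, against 3.67% of all measured genes lower and 4.29% higher. The lower members were mostly enzymes that conjugate or oxidise foreign compounds. In the conjugation and detoxification list 9 of 27 measured genes were lower, with a median difference of -0.70, beside a median of -0.03 over all measured genes. The antioxidant and NADPH lists held 1 lower gene each (Gpx2 of 18, Me1 of 6), with medians of -0.14 and -0.26, and the heme and iron list held 0 of 9, with a median of 0.00. These and the other gene lists were chosen with earlier results of these data known. Their counts are therefore no independent evidence of direction.

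Glutathione transferases, which join glutathione to electrophiles, made up the largest group. Gstm1 had signals of 64950 in Nrf2+/+ and 26990 in Nrf2-/- tumor, and of 123900 and 60970 in the non-tumor pools, a tumor difference of -1.34. Gstm3 read 16080 and 6037 in the tumor pools and 33330 and 14320 in non-tumor lung, a tumor difference of -1.49. Gsta3 read 11820 and 4694 in tumor and 32170 and 14660 in non-tumor lung, a tumor difference of -1.41. In each of these 3 genes the Nrf2-/- pool was the lower one in both tissues. Gsta1 was well above background in the Nrf2+/+ tumor pool alone, at 109.4 against 5.89, which is at least 3.92-fold lower, while in non-tumor lung it read 198.4 and 158.8. Gstm2 (-0.98), Mgst1 (-0.76), Mgst2 (-0.70), Gstm4 (-0.59) and Gsta4 (-0.44) were below 0 without reaching the mark, and Gstp1, a pi-class enzyme, was at -0.18. Values of single members of this family are uncertain, since probes of near-identical transferases can share signal.

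The remaining lower detoxification genes were oxidases and esterases. Cyp2a5, a cytochrome P450 of coumarin and nicotine oxidation, had signals of 1059 in Nrf2+/+ and 171.3 in Nrf2-/- tumor and of 6850 and 2349 in non-tumor lung, a tumor difference of -2.70. The aldehyde oxidases Aox3 (2093 against 598.1, -1.88) and Aox1 (6327 against 2862, -1.22) were lower as well. Of the tumor pools, Nrf2+/+ alone was well above background for the carboxylesterases Ces1f and Ces1g, at least 3.15-fold and at least 2.46-fold higher there. Nqo1, the quinone reductase widely used as a readout of Nrf2 activity, was dim in tumor: 58.1 in Nrf2+/+, and 34.7 and not well above background in Nrf2-/-, at least 1.76-fold lower. In non-tumor lung Nqo1 was brighter, at 247.6 and 78.8, with a difference of -1.62. Ephx1, Abcc1 and Abcc3, an epoxide hydrolase and transporters on the same list, lay between 0.05 and 0.23.

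Among antioxidant genes the epithelial glutathione peroxidase Gpx2 stood alone past the mark. It had signals of 2455 in Nrf2+/+ tumor, 339.0 in Nrf2-/- tumor, and 2434 and 562.6 in the non-tumor pools, a tumor difference of -2.93. The Nrf2-/- pools were thus below the Nrf2+/+ pools in both tissues. Txnrd1, thioredoxin reductase, was at -0.60, Gsr, glutathione reductase, at -0.50, and Srxn1, sulfiredoxin, at -0.28. Gclc, the catalytic subunit of the enzyme that limits glutathione synthesis, read 3709 and 5323, a difference of 0.45, whereas in non-tumor lung it was at -0.37. Its partner Gclm was dim, at 35.4 and 24.4. The cystine carrier Slc7a11 was at 0.01.

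Of the enzymes that supply NADPH, Me1, the cytosolic malic enzyme, had signals of 7212 in Nrf2+/+ and 3257 in Nrf2-/- tumor and of 1949 and 772.3 in non-tumor lung, a tumor difference of -1.22. Idh1 (-0.89) and G6pdx (-0.34) were also below 0, whereas Pgd, Taldo1 and Tkt of the pentose phosphate pathway lay between -0.17 and 0.04. In the heme and iron list Hmox1, heme oxygenase, was at 0.23 and the ferritin light chain Ftl1 at -0.56, the lowest of that list. Among targets well above background on both tumor arrays the differences therefore ranged from Gpx2 at -2.93 to Gclc at 0.45, and the plot of target genes shows this range by function.

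**Figure D2:**
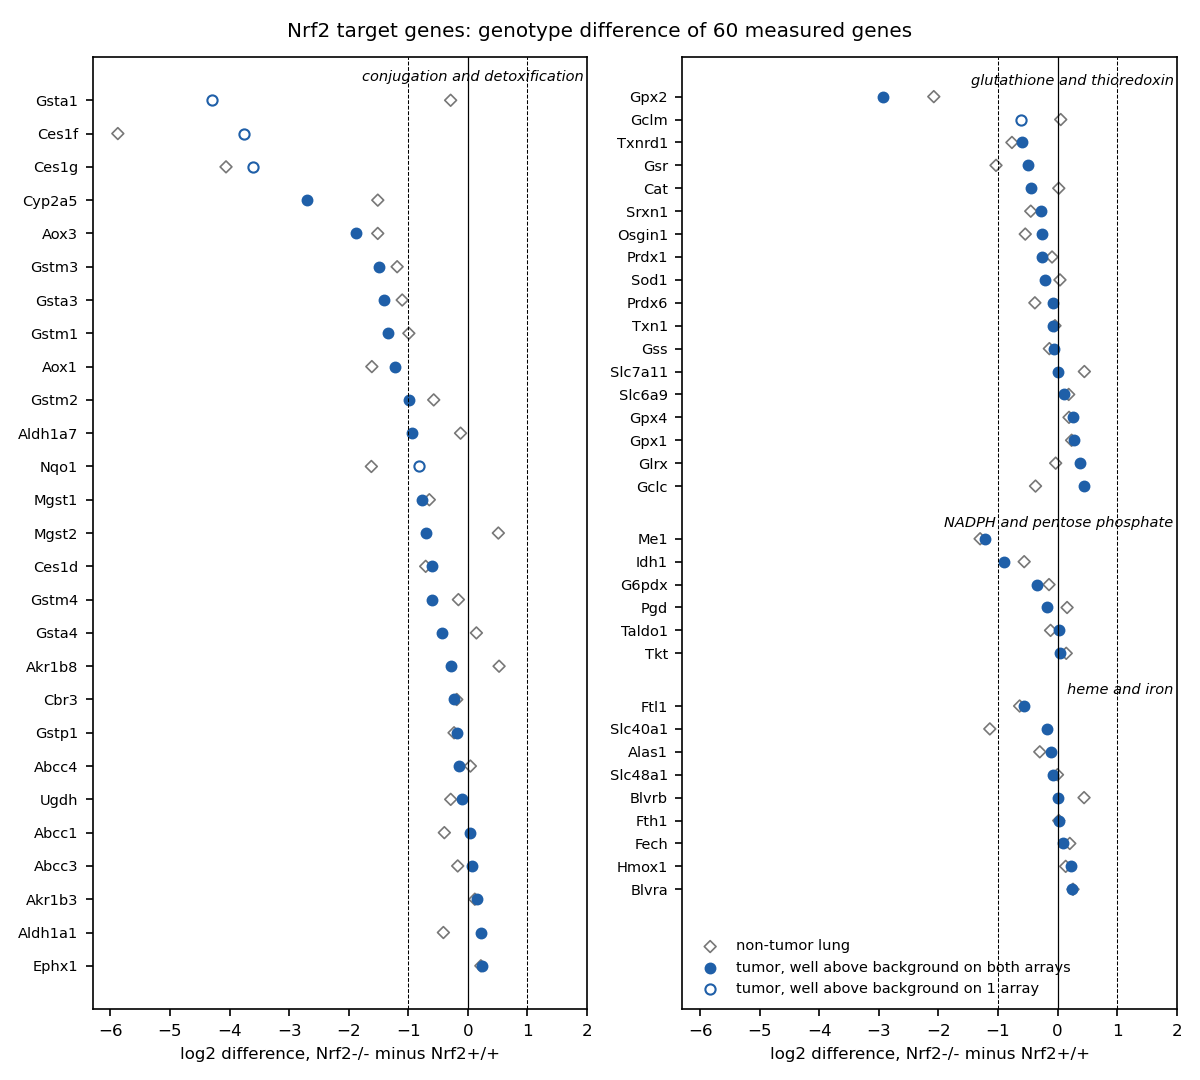
Difference of the 60 measured Nrf2 target genes, Nrf2-/- minus Nrf2+/+ on the log2 scale, by functional list; circles are tumor (open where only 1 tumor array was well above background) and diamonds non-tumor lung. Dashed lines mark 2-fold; 11 genes lie at or left of the lower mark in tumor and 0 beyond the upper one.

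Promoter sequence was read for the targets because these genes share Nrf2 as a known regulator and several were lower together. RefSeq windows from 250 bases before to 50 after the start site (build GRCm38.p6) were searched on both strands for TGACNNNGC, the core of the antioxidant response element. It occurred in 12.4% of all 32851 windows and in 16.7% of the measured genes with a window. Of the 10 lower targets with a window it was found in 2, Gsta3 and Me1, and of 37 other measured targets in 12. The stretches of both lower genes are shown with those of 3 targets that stayed within 2-fold, the match in capitals; each is printed in the direction of its gene, starts upstream of the match and ends with it (Me1) or a little downstream of it, and a match on the opposite strand reads GCNNNGTCA.
Gsta3, chr1:21240404-21240502, + strand: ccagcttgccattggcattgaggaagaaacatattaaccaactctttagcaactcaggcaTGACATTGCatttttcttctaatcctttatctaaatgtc
Me1, chr9:86695912-86695980, - strand: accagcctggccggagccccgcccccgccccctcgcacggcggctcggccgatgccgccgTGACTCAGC
Mgst1, chr6:138140411-138140509, + strand: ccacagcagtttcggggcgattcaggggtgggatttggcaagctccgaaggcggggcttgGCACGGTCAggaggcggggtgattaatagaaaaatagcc
Txnrd1, chr10:82859054-82859152, + strand: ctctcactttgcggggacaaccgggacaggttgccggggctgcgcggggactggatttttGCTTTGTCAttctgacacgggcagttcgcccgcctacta
Prdx1, chr4:116685406-116685504, + strand: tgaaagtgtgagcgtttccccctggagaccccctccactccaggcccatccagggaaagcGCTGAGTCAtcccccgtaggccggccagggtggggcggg
The matches of Me1 and, on the opposite strand, Prdx1 also hold TGACTCA, the motif of AP-1 factors, and the other 3 matches do not. The letters are a description of the window: the deposited data hold no measure of binding, and elements farther from the start were not searched.

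Fgg and Fga were among the genes with the largest higher values in Nrf2-/- tumor. They encode the gamma and alpha chains of fibrinogen, the clotting protein made mainly by the liver. Fgg had signals of 483.5 in Nrf2+/+ tumor, 16320 in Nrf2-/- tumor, 355.9 and 1424 in the non-tumor pools, a tumor difference of 5.0 with a software error of 0.20. Fga read 37.9 and 1187 in tumor and 51.1 and 134.8 in non-tumor lung, a tumor difference of 4.89. Both chains were higher in the Nrf2-/- pool of both tissues, by more in tumor than in non-tumor lung (2.03 for Fgg and 1.43 for Fga), a contrast that was not tested.

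Ptprn, a secretory granule protein of the receptor-type phosphatase family, had the largest value among genes well above background on both tumor arrays, 5.02. Its signals were 36.4 in Nrf2+/+ and 1246 in Nrf2-/- tumor, and 34.9 and 39.7 in non-tumor lung. Ly6d, a membrane-anchored protein of the Ly6 family, read 1855 and 32660 in tumor and 1800 and 1752 in non-tumor lung, a tumor difference of 4.06. Cited1, a transcriptional coactivator, read 43.1 and 448.1 in tumor and 46.7 and 51.7 in non-tumor lung, a tumor difference of 3.31. In these 3 genes the Nrf2-/- tumor pool stood above the other 3 pools, which lay close together.

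Hepacam, a cell adhesion protein (3.64; second probe 3.39), Ly6f (3.73), Wfdc21, a small secreted whey-acidic protein (3.32), Sprr1a, a cornified-envelope protein of squamous epithelium (3.04), and Pitrm1, a mitochondrial protease (3.07), were higher in Nrf2-/- tumor. In non-tumor lung these 5 genes lay between 1.67 (Hepacam) and 3.01 (Pitrm1), so Pitrm1 had nearly the same difference in both tissues. The class I gene H2-T23, which encodes the nonclassical molecule Qa-1, had signals of 1719 and 21840 in tumor and 10580 and 28330 in non-tumor lung, a tumor difference of 3.59. Ubd, a ubiquitin-like modifier induced by cytokines, read 268.1 and 2955 in tumor and 322.6 and 64.0 in non-tumor lung, so that its difference was 3.39 in tumor and -2.30 in non-tumor lung.

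Some genes were well above background in Nrf2-/- tumor but not in Nrf2+/+ tumor. Tmem14c, a mitochondrial membrane protein of heme synthesis, was at least 55.8-fold higher, and Nppa, the atrial natriuretic peptide, at least 54.0-fold. Tescl, Cfd, the complement protease adipsin, and Alpk2 were at least 53.3-fold, 10.2-fold and 9.03-fold higher. All but Alpk2 were well above background in both non-tumor pools. There Tmem14c read 540.9 in Nrf2+/+ and 1130 in Nrf2-/- (1.10), and Tescl 23.84 and 896.2 (5.27). Nppa read 63.65 and 29.85 (-1.06), and Cfd 721.8 and 503.9 (-0.48). Tescl and Tmem14c were thus higher in the Nrf2-/- pool of both tissues. Both Nppa probes were brightest in the Nrf2-/- tumor pool, at 1479 and 360.5, against 26.0 and 5.63 in Nrf2+/+ tumor. Nppa and Cfd mark cardiac muscle and fat, so the rest of those lists is given with them. Of 16 measured cardiac muscle markers 3 were higher (Nppa, Mb and Sln) and 0 lower, with a median of 0.17 and a summed level of 164.2 in Nrf2+/+ and 190.5 in Nrf2-/- tumor; Myh6 and Myh7, the heavy chains of heart muscle, were at 0.13 and 0.20. Of 12 measured adipocyte markers 2 were higher (Cfd, and Car3, whose bound is at least 1.91-fold) and 1 lower, with a median of 0.43 and summed levels of 20.2 and 28.6; Plin1, the lipid droplet protein that defines fat cells, was dim at 34.5 and 47.6. A summed level adds the members' signals, each divided by its array's 75th percentile. The part of carried-over heart or fat tissue in these values was not tested.

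Beside Nfe2l2, the lowest values in Nrf2-/- tumor belonged to genes that were low in both tissues and to genes low in tumor alone. Cdh1, E-cadherin of epithelial junctions, had a signal of 1968 in Nrf2+/+ tumor and 28.6, not well above background, in Nrf2-/- tumor, at least 70.5-fold lower. In non-tumor lung it read 1065 and 32.2. This value came from a single probe of the array. The other 19 measured genes of the epithelial junction and mesenchymal list were within 2-fold in tumor, the highest at 0.97. Epcam was at -0.44, the keratins Krt8 and Krt18 at 0.07 and -0.06, and the E-cadherin partners Ctnnb1 and Ctnna1 at -0.17 and -0.07. The mesenchymal genes Vim, Zeb1 and Snai1 were at 0.29, 0.20 and 0.34.

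C3, the central complement component, read 61250 in Nrf2+/+ and 4183 in Nrf2-/- tumor, and 91570 and 7358 in non-tumor lung, a tumor difference of -3.95 (second probe -3.35). Rmnd1, a mitochondrial translation protein (-4.55; second probe -2.89), Firre, a nuclear long noncoding RNA of the X chromosome (-4.43), 1600029I14Rik (-3.71), Ifi47, an interferon-induced GTPase (-3.32), and P2rx2, an ATP-gated channel (-3.22), were lower in Nrf2-/- tumor too. In non-tumor lung these genes lay between -4.44 (1600029I14Rik) and -2.02 (P2rx2). Raet1e, a ligand of the natural killer receptor NKG2D, was at least 42.1-fold lower in tumor and at least 8.34-fold lower in non-tumor lung. In all of these genes both Nrf2-/- pools lay below both Nrf2+/+ pools.

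Sox9, a transcription factor of distal lung progenitors, behaved otherwise. It had signals of 881.6 in Nrf2+/+ tumor and 42.4 in Nrf2-/- tumor, a difference of -4.45, and 4.67 and 7.68 in non-tumor lung, where neither array was well above background. A second probe read 882.9 and 17.5 in tumor, while the third read 6.69 and 6.32, not well above background. Sox9 was thus bright in the Nrf2+/+ tumor pool alone. Cckar, a cholecystokinin receptor, read 1029 and 116.3 in tumor and 1145 and 998.4 in non-tumor lung (-3.22 and -0.16). Ppp3r2, a calcineurin subunit, and Fjx1, a secreted kinase-like protein, were at least 17.3-fold and at least 10-fold lower in tumor. In non-tumor lung Ppp3r2 read 50.35 and 29.44 (-0.74) and Fjx1 126.4 and 31.86 (-1.95). Fjx1 was thus past 2-fold lower in both tissues, unlike Sox9 and Cckar.

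The Bex, Ly6 and plasma protein families hold several of these genes and were picked out after their values had been seen, so their counts are no independent evidence of direction. Of the 4 Bex genes, small adaptor proteins encoded side by side on the X chromosome, Bex2 read 19500 and 1665 in the tumor pools, Bex4 34620 and 3744, and Bex1 380.2 and 40.7, differences of -3.62, -3.28 and -3.30. Bex3 read 22950 and 23780, a difference of -0.02. In non-tumor lung Bex2 and Bex4 were at -1.47 and -1.05 and Bex1 at -0.55. Bex3 thus stood apart from the other 3 in tumor.

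Of 13 measured Ly6 genes 3 were higher, Ly6d, Ly6f and Ly6k (999.0 against 7222, 2.78), and 0 lower, with a median of 0.33. Ly6a (Sca-1) was at 0.60 and Ly6c2, of monocytes, at 0.33. In non-tumor lung 2 of 13 Ly6 genes were higher, Ly6f (2.28) and Ly6k (2.75), and 1 lower, with a median of -0.15. Of 34 measured acute phase and plasma protein genes 18 were higher and 3 lower, with a median of 1.40. Besides the fibrinogen chains, Itih3 (2.74), A2m, a protease inhibitor (2.47), Saa3, serum amyloid A (1.89), Itih4 (1.84), Serpina3n (1.75), C4b (1.61) and Cfb (1.40) were higher. Prothrombin (F2) was well above background only in Nrf2-/- tumor, at least 6.63-fold higher. The 3 lower genes were C3, Alb (1837 against 253.7, -2.93) and Itih2 (-1.32). Hp, haptoglobin, and Hpx, hemopexin, were at 0.46 and -0.08. In non-tumor lung 12 of the 30 plasma protein genes measured in both tissues were higher and 3 lower, with a median of 0.79.

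Chemokines, the secreted proteins that attract leukocytes, were the pathway list with the highest median, 0.84: 13 of 27 measured genes were higher (48.2%, against 4.29% of all genes) and 3 lower. This list, too, was chosen with earlier results of these data known. Ccl3, which attracts monocytes and T cells, read 38.7 and 295.7 in the tumor pools and 72.1 and 178.2 in non-tumor lung, a tumor difference of 2.86. Cxcl9, an interferon-gamma-induced ligand of Cxcr3, read 482.1 and 2500 in tumor and 189.2 and 384.2 in non-tumor lung, 2.30 in tumor. Cxcl13, which attracts B cells, read 80.2 and 433.5 in tumor and 176.6 and 320.6 in non-tumor lung, 2.36 in tumor. All 3 were higher in the Nrf2-/- pool of both tissues. Ccl20 (2.26), Ccl17 (2.22), Ccl7 (2.10), Ccl8 (1.63), Cxcl10 (1.54), Ccl4 (1.42), Ccl9 (1.40), Ccl2 (1.37), Ccl12 (1.36) and Cxcl1 (1.27) made up the rest of the higher genes. The lower genes were Ppbp (-2.16) and Pf4 (-1.01), which are stored in platelets, and the neutrophil attractant Cxcl5, with 272.8 and 71.8 in tumor and 51.7 and 206.3 in non-tumor lung (-2.0 and 2.03). Cxcl12 and Ccl19, of stromal cells, were at 0.52 and 0.29. Over the chemokine list, 10 of 28 measured genes were higher in Nrf2-/- non-tumor lung and 1 lower, with a median of 0.66.

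Among 23 measured cytokines 6 were higher and 0 lower, with a median of 0.38. Ifng, interferon gamma, read 96.7 and 349.9 in the tumor pools and 155.2 and 127.7 in non-tumor lung, a tumor difference of 1.78. Spp1, osteopontin, read 18060 and 67180 in tumor and 14160 and 18080 in non-tumor lung, a tumor difference of 1.82. The Nrf2-/- tumor pool was the highest of the 4 for both. Ltb (1.35), Il33 (1.25), Lta (1.22) and Il1b (1.10) were the others, while Tnf was at 0.38 and Tgfb1 at 0.20.

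Interferon-response genes had a median of 0.44, with 26 of 27 above 0, 4 higher (Cxcl9, Cxcl10, Oas2 at 1.11 and Oas1a at 1.07) and 1 lower, Ifi47. Of those above 0, Ifih1 (0.06), Gbp2 (0.03), Gbp3 (0.04) and Irgm1 (0.03) fell below 0 with spike-in scaling. In non-tumor lung the median of the list was -0.26, and the enzyme Ido1, at -2.90 there, was at 0.47 in tumor. Genes of class I presentation, which display peptides to CD8 T cells, had a median of 0.40, with 3 of 14 higher: H2-T23, H2-D1 (74490 against 207700, 1.41) and H2-Q4 (1.18). H2-K1 and B2m were at 0.60 and 0.45. Class II genes had a median of 0.07, and H2-DMb1 alone was past the mark (1.03), while H2-Aa and H2-Ab1 were at -0.09 and 0.12 (H2-Aa at 0.42 as the mean over its probes).

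**Figure D3:**
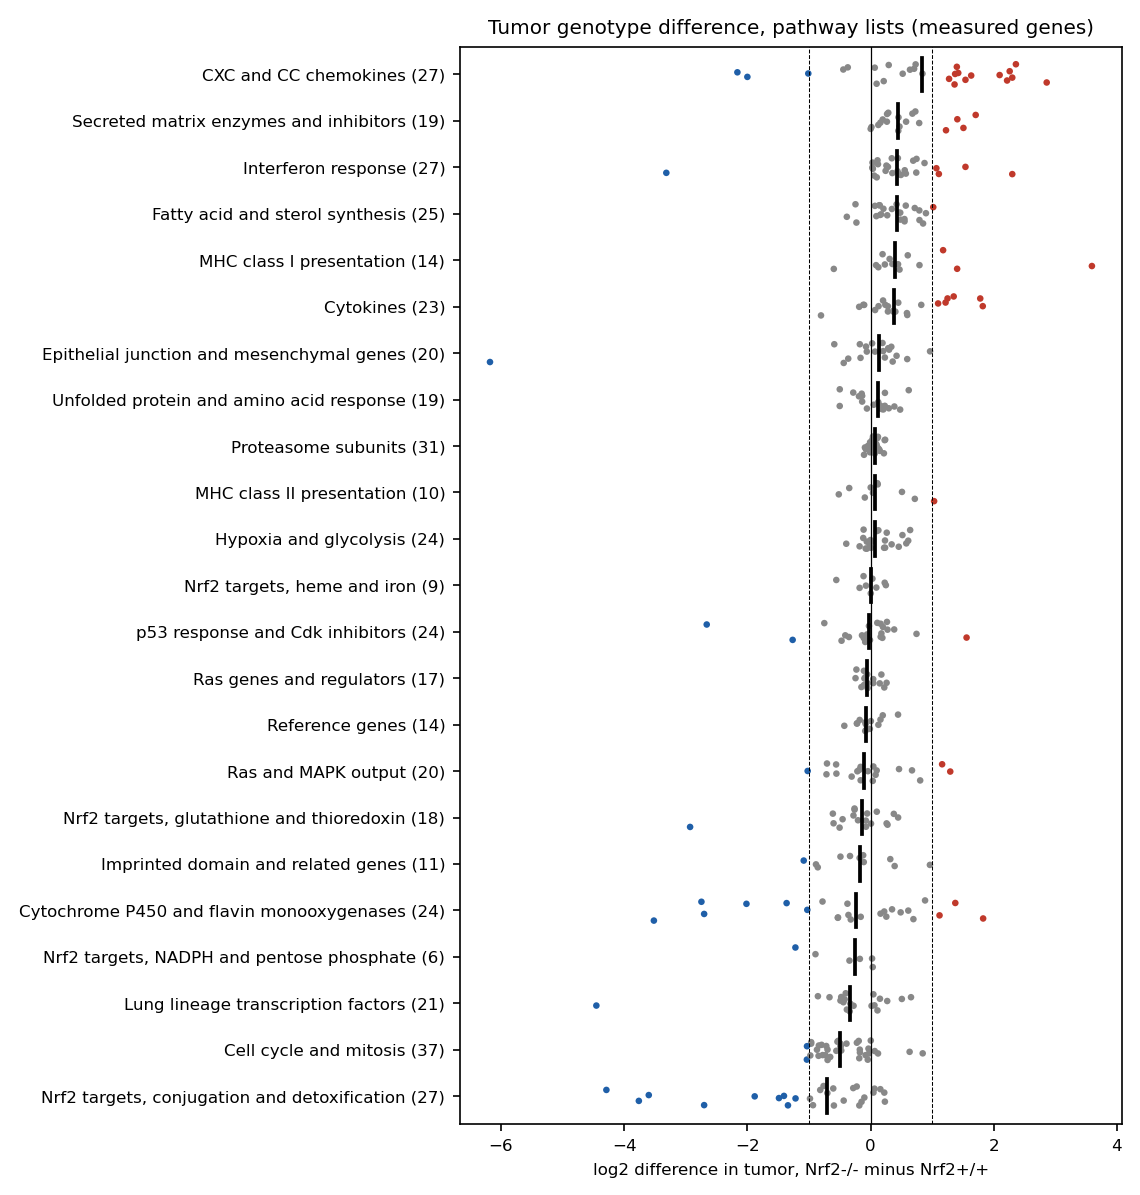
Difference in tumor, Nrf2-/- minus Nrf2+/+ on the log2 scale, of the measured members of 23 pathway lists; each point is a gene (red at least 2-fold higher, blue at least 2-fold lower), the bar is the list's median and the number of members is in brackets. Chemokines lie at the top with a median of 0.84 and the Nrf2 conjugation and detoxification targets at the bottom with -0.70.

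Cell cycle genes lay lower in the Nrf2-/- tumor pool as a list: 32 of 37 measured genes were below 0, with a median of -0.49, although only Cdk1, the mitotic kinase, and Ube2c, a ubiquitin-conjugating enzyme of mitotic exit, were past 2-fold. Cdk1 read 332.6 and 170.9 in tumor and 136.5 and 142.9 in non-tumor lung, a tumor difference of -1.03. Top2a (-0.96), Ccna2 (-0.87), Ccnb1 (-0.84), Plk1 (-0.73), Birc5 (-0.70) and Mki67 (-0.54), which act in S phase and mitosis, followed. The licensing helicase genes Mcm2 to Mcm7 lay between -0.22 and -0.05, and Tk1, thymidine kinase, was at 0.63. In non-tumor lung the list's median was 0.22.

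Genes of Ras and MAPK output were mixed, with 2 of 20 higher, 1 lower and a median of -0.10. The feedback genes Spry1 and Dusp4 were at -0.72 and -0.55, and Dusp6 at -0.16. Etv4, an Ets factor, read 662.0 and 343.3 (-1.02), while the Egfr ligands Areg (279.1 against 720.4, 1.29) and Ereg (41.2 against 96.9, 1.16) were higher. The 17 Ras genes and regulators all lay between -0.24 and 0.26. Among 24 genes of the p53 response and Cdk inhibitors, Pmaip1 (Noxa) was higher (1.56), Plk2 lower (-1.26) and Gadd45a at least 5.40-fold lower, while Cdkn1a (p21) and Mdm2 were at 0.20 and -0.10.

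Secreted matrix enzymes and their inhibitors were all above 0 in the 19 measured genes, with a median of 0.45 and 4 higher: Mmp9 (91.1 against 313.1, 1.71), Serpine2 (1.51), Timp1 (1.41) and Mmp13 (1.23). The values of Mmp12 (0.002) and Mmp15 (0.01) fell below 0 with median or spike-in scaling. Fatty acid and sterol synthesis genes had a median of 0.42, with 22 of 25 above 0 and Fdps, of the mevalonate pathway, past the mark (1.02), followed by Scd1 (0.90) and Cyp51 (0.85). Fdft1, at 0.42 by its brightest probe, was at -1.39 as the mean over its probes. Hmgcs1 (0.07) fell below 0 with spike-in scaling. Cytochrome P450 and flavin monooxygenase genes went both ways, with 6 of 24 lower, 5 of them well above background on both arrays, and 3 higher. Besides Cyp2a5, Cyp2a4 (-2.75), Cyp2c40 (3710 against 965.9, -2.02) and Cyp2f2 (-1.36) were lower, and Cyp7b1 (1.83), Cyp26b1 (1.38) and Cyp4a12a (1.12) higher. Cyp2e1, which oxidises urethane, was dim at 35.2 and 60. Of 24 hypoxia and glycolysis genes, 31 proteasome subunits, 19 genes of the unfolded protein and amino acid response and 14 reference genes, 0 were past 2-fold in either direction, with medians of 0.07, 0.07, 0.13 and -0.07.

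Markers of cell types describe what the pools contained, and in bulk RNA fewer cells of a type cannot be told apart from less RNA per cell. Alveolar type 2 markers were bright in both tumor pools: all 21 listed markers on the array were measured, 1 was higher and 0 lower, and the median was 0.14. Sftpc, surfactant protein C, read 263600 in Nrf2+/+ and 266300 in Nrf2-/- tumor, and Sftpa1 142500 and 142600. Abca3, which loads surfactant lipid, was at -0.35 and Scd1 at 0.90. The median of the alveolar type 1 markers was 0.29, with Ager at 0.17, Hopx at 0.27 and Pdpn past the mark at 1.12. The lineage factors Nkx2-1, Foxa2 and Cebpa were at -0.34, -0.42 and -0.40. The labelled tissue, lung tumor, therefore carried the surfactant genes of alveolar type 2 cells at near-equal level in both pools.

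Airway markers went both ways. Club cell markers had a median of -0.88 (-0.57 with normexp background correction), with 4 of 14 lower and 0 higher. Among the lower ones were Cckar, Cyp2f2 (23680 against 9690) and Upk3a, whose bound is at least 1.28-fold. The 5 of the 14 that lay above 0 were all within 2-fold: Cyp2b10, a cytochrome P450 (0.89), Scgb3a1, a secretoglobin (0.46), Hp (0.46), Aldh1a1 (0.22) and Nupr1 (0.16). Scgb1a1, the club cell secretory protein, read 115800 and 64650 in the tumor pools and 228500 and 194500 in non-tumor lung, a tumor difference of -0.91. Ciliated cell markers had a median of -0.84, with 6 of 16 lower, among them Foxj1, the master regulator of motile cilia (79.3 against 35.0, -1.25), and Tekt1 (-1.08). Of these 6, 3 were well above background on both arrays, 2 had a bound past 2-fold and 1, Rsph4a, allowed no bound. The 3 markers above 0 were Tppp3 (0.19), Ccno (0.02) and Dnaic1 (0.00). Neuroendocrine markers were dim, with 6 of 17 measured and 4 lower: Grp (359.9 against 144.6, -1.39), Ddc (-1.15), and Scg5 and Syp, whose bounds did not reach 2-fold. The summed level of the club list was 835.5 in Nrf2+/+ and 574.3 in Nrf2-/- tumor, and that of the ciliated list 25.1 and 19. The lower detoxification targets lay lower together with these airway markers, whose part in the values of the targets was not tested.

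Of 12 measured goblet markers 6 were higher by their signals and 0 lower, with a median of 0.89; 5 of the 6 were well above background on both arrays or had a bound past 2-fold. Pigr, which carries antibodies across epithelium, read 137.7 and 952.3 in tumor and 446.6 and 985.9 in non-tumor lung, a tumor difference of 2.72. Muc5b, the main airway mucin, read 267.7 and 1198 in tumor and 256.0 and 398.1 in non-tumor lung, 2.09 in tumor. Ltf, lactoferrin, was at 1.72. Of the tumor pools, Nrf2-/- alone was well above background for Tff3, Agr2 and Tff1, at least 2.89-fold, 1.55-fold and 2.03-fold higher. Muc5ac and the goblet cell factor Spdef, however, were at 0.07 and -0.44. With dim signals set to the lowest signal well above background the goblet median was 0.63. With genes well above background on both arrays alone, the medians were 0.03 for goblet, -0.57 for ciliated and -0.43 for neuroendocrine markers, so the dim members carried much of these values. Normexp background correction gave medians of 0.23, -0.50 and -0.37 for the same lists.

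Markers of leukocytes lay mostly above 0, and the smaller share of them was past 2-fold. All 18 measured T and NK cell markers were above 0, with a median of 0.73 and a range from 0.31 to 1.27. Ccr7 (1.27) and Cd8a (115.5 against 258.0, 1.09) were past the mark, and the T cell receptor chains Cd3d, Cd3g and Cd3e were at 0.96, 0.86 and 0.68. The summed level of the list was 10.6 in Nrf2+/+ and 17.5 in Nrf2-/- tumor. Neutrophil markers had a median of 0.60 with 5 of 15 higher, among them Cd177 (7734 against 26040, 1.68), Il1r2 (1.87) and Cxcr2 (1.57), but the most abundant neutrophil proteins S100a8 and S100a9 were at -0.07 and 0.01. Macrophage markers had a median of 0.50 with 23 of 24 above 0. Of these, Siglecf (0.001) and Lpl (0.04) fell below 0 with spike-in scaling. Spp1, Marco (1.44) and Ctsk (1.09) were higher and Arg1 lower (-1.33). B and plasma cell markers had a median of 0.24 in tumor, with 2 of 17 higher and 0 lower, and of -0.39 in non-tumor lung. The 2 were Fcer2a (CD23, 230.0 against 1434, 2.57) and Jchain, the joining chain of secreted antibodies (1068 against 5090, 2.18). Cd79b was at -0.23. These lists lay higher together with the chemokine and cytokine genes described above, and their part in those values was not tested.

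Platelet markers were low, with all 14 measured genes below 0, 8 of them past 2-fold and a median of -1.06 (-0.59 with normexp background correction). Besides Ppbp and Pf4, Treml1 (479.3 against 163.4, -1.63) and Gp1bb (-1.29), receptors of the platelet surface, were lower. In non-tumor lung 13 of 15 were lower, with a median of -1.79. Mesothelial markers, of the lung's outer lining, were higher in both tissues, with 6 of 9 past the mark and a median of 1.17 in tumor (0.77 with normexp background correction) and 1.16 in non-tumor lung. Among them were Prg4, lubricin (23.4 against 128.6, 2.39), Upk3b (1.17) and Msln, mesothelin (1.07). Fibroblast markers had a median of 0.47 with 3 of 24 higher (Dpt 1.20, Col6a1 1.11, Thy1 1.03), endothelial markers 0.25 with 0 of 25 past 2-fold, and smooth muscle markers -0.16 with Cnn1 lower (-1.05). Erythroid markers had 0 of 7 past 2-fold, and the hemoglobin genes Hba-a1 and Hbb-bt were at -0.28 and -0.17.

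**Figure D4:**
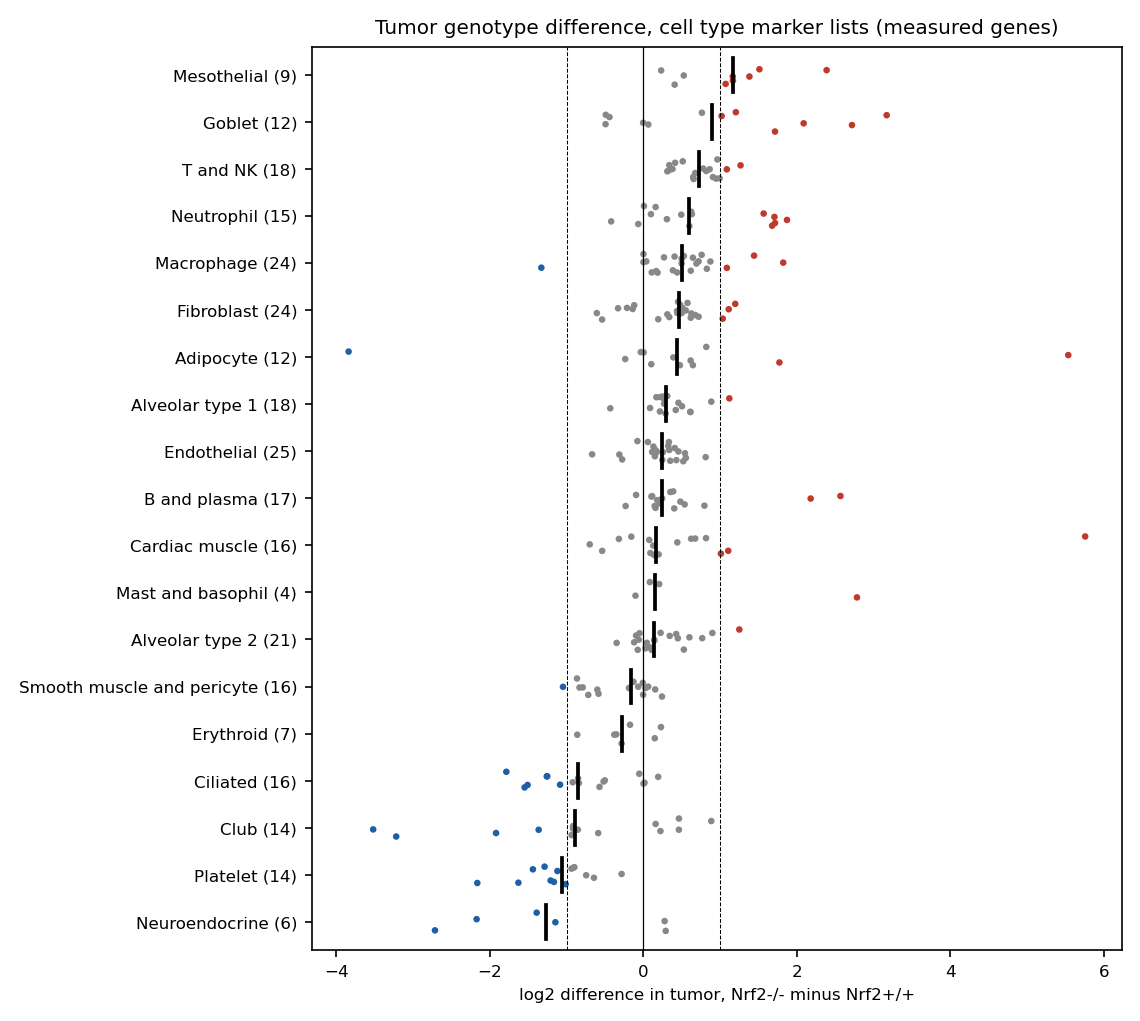
Difference in tumor, Nrf2-/- minus Nrf2+/+ on the log2 scale, of the measured members of 19 cell type marker lists; points are genes, bars are medians and the number of members is in brackets. Mesothelial (median 1.17) and goblet (0.89) markers lie at the top, and ciliated, club, platelet and neuroendocrine markers at the bottom, below -0.83.

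The tumor values were then set beside those of non-tumor lung, a comparison that shares no array with them but crosses slides, as the Nrf2+/+ non-tumor array lay apart. Of 17461 genes that both comparisons measured, 170 were past 2-fold upward in Nrf2-/- in both tissues, which is 27.5% of the 618 higher in tumor and 46.8% of the 363 higher in non-tumor lung. At least 2-fold lower in both were 203 genes, 39.2% of the 518 lower in tumor and 44.6% of the 455 lower in non-tumor lung. Past 2-fold in opposite directions were 23. In the non-tumor comparison as a whole 3.04% of genes were higher and 4.61% lower, together 7.65%. Across the 16287 genes that passed the background flag on all 4 arrays, the differences in the 2 tissues had a Pearson correlation of 0.43 and a Spearman correlation of 0.28; these points are genes read on the same arrays and are not independent.

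Of the genes past 4-fold in tumor within those 16287, 85 were higher and 53 lower in Nrf2-/-. The larger share of the lower ones was also lower in non-tumor lung: 34 of 53 were past 2-fold the same way there and 12 were within 1.5-fold. Of the 85 higher ones 36 were past 2-fold the same way and 31 were within 1.5-fold, as for Ptprn (0.22), Ly6d (-0.00) and Cited1 (0.18). Whether the directions differ in this was not tested.

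**Figure D5:**
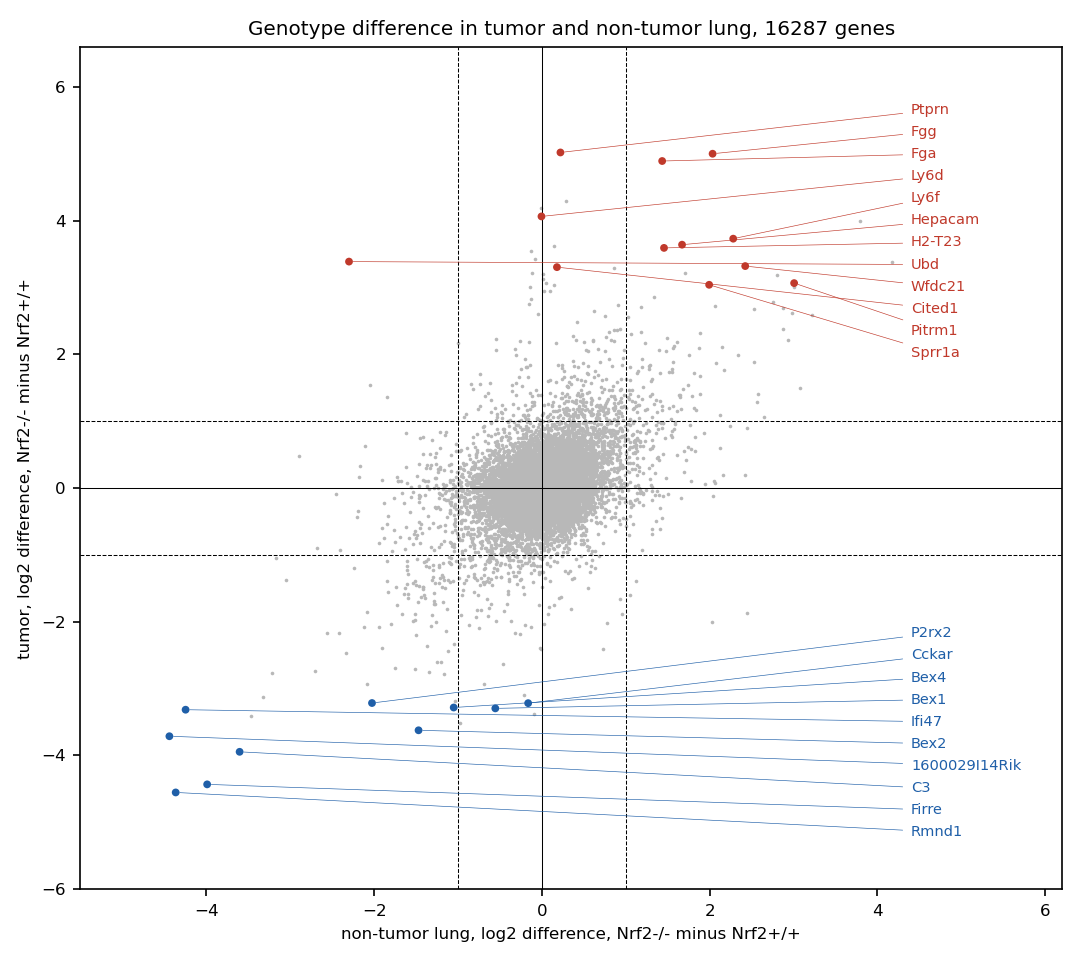
Difference Nrf2-/- minus Nrf2+/+ on the log2 scale in non-tumor lung (x axis) and tumor (y axis) for the 16287 genes that passed the background flag on all 4 arrays. Dashed lines mark 2-fold; Pitrm1, Rmnd1, Firre and C3 lie far out in both tissues, whereas Ptprn, Ly6d, Cited1 and Cckar lie far out in tumor and near 0 in non-tumor lung, and Ubd lies on opposite sides.

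The design allows a single test, of a genotype term shared by both tissues, in an additive limma fit with tissue and genotype terms over the 4 arrays and 1 residual degree of freedom; the array on the other slide enters it as well. After Benjamini-Hochberg adjustment over 20553 genes, 0 genes (0.0%) passed 0.05 and 1910 had an unadjusted p under that value. The smallest adjusted p of this limma fit was 0.168, for Nfe2l2; that of Pitrm1 was 0.225. The count depended on the scaling and filter: 86 genes higher and 87 lower passed with scaling on the array median, 73 and 77 among genes well above background on all 4 arrays, 24 and 27 with normexp background correction, and 0 with quantile or spike-in scaling or with the mean over probes.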

How the data were processed

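Per the labels' protocols, RNA pooled from 8 mice per group was labelled with Cy3 from 500 ng and hybridised to an Agilent mouse array. The deposited files hold linear intensity values per spot, read by the authors with Agilent Feature Extraction 10.7.3.1 (design 014868, annotated on mm9), per the file headers, which also list background subtraction and detrending. A normalization across arrays is not given in the sources used here.

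From these, the processed signal was put on the log2 scale and the 75th percentile of the array's non-control spots was subtracted (555 and 584 intensity units on the Nrf2+/+ and Nrf2-/- tumor arrays). Leaving out 4 probes whose spots were non-uniform, 41170 remained, and a gene was represented by its brightest probe. Symbols came from RefSeq tables (GRCm38.p6) through unversioned accessions or from the files, for 26691 of them. On the tumor arrays 56.2% and 54.2% of spots were well above background and 0 saturated; 1 array per group limits the precision. The submitters' value table equalled the scanner signal within 0.50%.

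Genes named were the 12 largest differences each way among those well above background on both tumor arrays, the 5 largest bounds each way, and examples from 43 gene lists; a few of these genes are not reported here. The members and lists were chosen with earlier results of these data known, and the 3 families named as such after seeing values. The fit used limma 3.58.1 in R 4.3.3 (eBayes) and was run on data simulated from the same additive model. The simulation held no slide effect and no genotype difference that depends on tissue, so it cannot speak to these in the real arrays. The rest used Python 3.11.15 with pandas 2.3.3, numpy 2.4.6 and matplotlib 3.10.9. Alternatives were median, quantile and spike-in scaling, normexp (offset 50), filters on dim probes, the mean over probes and the submitters' value table.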

Additional observations from a re-analysis of the deposited data

Results flagged for a closer look

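Cxcl5, a neutrophil-attracting chemokine, was lower in Nrf2-/- than in Nrf2+/+ tumor (-2.0 on the log2 scale) and higher in Nrf2-/- than in Nrf2+/+ non-tumor lung (2.03), with all 4 pools well above background. Ubd, the ubiquitin-like modifier, went the other way, at 3.39 in tumor and -2.30 in non-tumor lung. Nppa, the atrial natriuretic peptide, differed by 5.75 in tumor, where the Nrf2+/+ pool was not well above background (at least 54.0-fold higher), and by -1.06 in non-tumor lung. Each of these genes was past 2-fold in opposite directions in the tissues, which is what brought it here. The search covered only the genes named for size and the members of the gene lists. They also had to pass the background flag on both tumor arrays or have a tumor bound of at least 2-fold. Over all genes measured in both tissues, 23 were past 2-fold in opposite directions. With 1 array per group the difference between the tissues was not tested.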

How the results depend on the processing

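The counts of genes at least 2-fold higher and lower (764 and 655) were 363 and 235 with normexp background correction, which raises dim signals, and 460 and 307 where both arrays had to pass the background flag; with no filter on dim probes 1249 were higher. With spike-in scaling 47.8% of the genes past 2-fold were higher, against 53.8% in the values reported and 60.7% with normexp. The counts past 2-fold in both tissues (170 higher, 203 lower) were 76 and 82 with normexp, and 105 were lower where both arrays had to pass the flag. Against 0 and 0 genes higher and lower, the genotype term over both tissues gave 86 and 87 after scaling on the median, 24 and 27 after normexp, and 73 and 77 when all 4 arrays had to pass the flag. None of the 34 genes named for the size of their difference or bound changed direction in the alternatives run. Of 730 measured list genes 61 changed sign with spike-in scaling, each within 0.09 of 0, among them Slc7a11, Mafg, Bach1, Sqstm1, Abcc1, Abcc3, Krt8, Muc5ac, Taldo1, Tkt and S100a9. Under median, quantile, normexp or probe-mean settings 13 to 26 did, the largest being Fdft1, from 0.42 to -1.39 with the probe mean. With dim spots at the lowest signal well above background 3 did, among them Rsph4a (-1.78 to 0.02) and Peg3 (-1.085 to 0.14). List medians near 0 changed sign as well. Those of the Nrf2 partners, class II, glycolysis and proteasome lists fell below 0 with spike-in scaling (-0.05, -0.01, -0.02 and -0.01), and that of the heme and iron targets ranged from -0.08 to 0.01. Of 387 list medians under the alternatives 375 moved by less than the software's error of 0.20 and 12 by more. Of 306 values of the 34 genes 39 moved by more, most of them under normexp. These totals include values that could not move by 0.20 and so do not measure robustness. Without a filter the same list members were used, and a filter on dim probes leaves a single gene's value unchanged. Median and spike-in scaling shift all genes alike, by -0.02 and -0.09. The submitters' value table holds the same signal. Normexp was run on the median spot signal, and a setting that put dim spots at the lowest signal well above background was added; both were chosen after seeing the data. No paired analysis was possible because each group is 1 array and the numbers 1 to 4 in the labels run across the groups; the additive fit takes tissue, not a replicate, as its block. Nqo1, Gclm and other dim genes are limited by background, and the absence of a second pool per genotype limits every difference.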

Other observations

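Genes next to Nfe2l2 in the RefSeq gene order were read as well, 20 measured genes on each side. Their median difference in tumor was -0.15, with 1 of 40 at least 2-fold higher and 2 lower, close to the shares over all measured genes (4.29% and 3.67%). Cwc22, a splicing factor, had signals of 588.8 in Nrf2+/+ and 203.9 in Nrf2-/- tumor and of 679.9 and 250.6 in non-tumor lung, differences of -1.60 and -1.41. Osbpl6, a lipid-binding protein, was at -1.04 in tumor and -0.58 in non-tumor lung. Chrna1, a subunit of the muscle acetylcholine receptor, was well above background in the Nrf2-/- pools alone, at 78.8 in tumor. The neighbours Hnrnpa3 and Agps, which flank Nfe2l2, were at -0.20 and -0.08. Cwc22 was thus the neighbour past 2-fold in the same direction in both tissues among genes well above background on all 4 arrays.

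Imprinted and related genes that are known from fetal growth lay mostly below 0 in the Nrf2-/- tumor pool, with a median of -0.18 over 11 measured genes, 0 higher and 1 lower past 2-fold. That one, Peg3, was dim, at 25.3 in Nrf2+/+ and 12.6, not well above background, in Nrf2-/-, and allows no bound. Rian, a noncoding RNA, read 1711 and 974.2 (-0.89), Plagl1, a zinc finger factor, 3236 and 1880 (-0.86), and Meg3 71230 and 59500 (-0.33), while Igf2, the growth factor, read 80.7 and 165.5 (0.96).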
